A study of Mus musculus with 19 samples.

Results

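The genes described here encode 8 enzymes of xenobiotic and aldehyde metabolism, Cyp2a5, Cyp2b19, Ces1d, Aldh3a1, Adh7, Gsta4, Gstm1 and Nqo1, which are 8 of the 24689 genes measured in mouse tongue epithelium. They were chosen by name with their levels in these same mice known. Their levels, fold changes and counts past thresholds are therefore given as a description only. The 8 enzymes were in the fit over all genes that set the thresholds, so nothing is concluded from which of them passed. Adjusted p values are given only for other genes of the same pathways, whose lists were also drawn up with earlier results of these data known.

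RNAseq was performed on poly(A) RNA of tongue epithelium from 19 mice, 15 days after induction of transgenes for the human papillomavirus oncogenes E6-E7 and for the active YAP mutant YAP1S127A. All 5 E mice were Krt14-CreERT/LSL-rtTA/tetON_E6-E7, all 3 Y mice were Krt14-CreERT/LSL-rtTA/tetON_YAP1S127A, and all 6 EY mice carried both tetON transgenes beside Krt14-CreERT and LSL-rtTA. The 5 control mice, N, were not alike: N mice 1, 2 and 3 were Krt14-CreERT/LSL-rtTA, N mouse 4 carried LSL-rtTA without the Cre, and N mouse 5 carried Krt14-CreERT with both tetON transgenes but no rtTA. By the methods of the study, littermates aged 8 to 16 weeks received 3 tamoxifen injections into the tongue and doxycycline chow, also in the N group, and a tetON H2B-GFP reporter was present in the lines. The Krt14 promoter confines Cre to basal keratinocytes and their progeny, while the RNA came from the whole epithelial sheet, with the cells lying within it. The E, Y and EY mice are all compared with the same N mice, so these comparisons are not independent of each other.

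Xenobiotic metabolism proceeds by oxidation or hydrolysis, in which cytochromes P450 and carboxylesterases expose a reactive group, followed by conjugation, in which glutathione transferases and related enzymes attach a polar one. Alcohol and aldehyde dehydrogenases remove alcohols and the reactive aldehydes formed from them or by lipid peroxidation, and quinone reductase keeps quinones from redox cycling. Epithelium of the mouth and upper digestive tract meets ethanol, aldehydes and smoke constituents directly, and many of these genes respond to the stress sensor NRF2 or to the aryl hydrocarbon receptor.

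Levels are given in TPM, as deposited. Behind them lay 8269674 to 11007304 reads per mouse, with medians of 9637779, 8848776, 8679053 and 9448942 for the N, E, Y and EY mice. The 6 oral keratinocyte markers, Krt5, Krt14, Krt13, Krt4, Krt6a and Trp63, together made up 80543 to 150064 TPM in N mice and 52515 to 80806 TPM in EY mice, which is the tissue the labels name. In bulk epithelium, fewer cells of a type and less RNA per cell cannot be told apart. All 8 genes passed the filter of at least 0.1 TPM in at least 3 mice, Cyp2b19 through its values in the N and E mice, so that it could not have passed without being higher there.

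Fold changes are on the log2(TPM + 0.1) scale, which understates the change of genes at low levels. Over all 22745 genes tested, EY, Y and E mice had median log2 fold changes of 0.328, 0.132 and 0.068 against N, and of 0.011, -0.033 and -0.024 under median-of-ratios scaling. For this reason the log2 fold change after that scaling is given beside the one as deposited. A gene is called past the thresholds when limma gave it an adjusted p under 0.01 and its log2 fold change was above 1 or below -1. Of the 4157 genes past them in EY against N, 68.8% were higher, against 43.8% of 3512 after median-of-ratios scaling and 46.0% of 3544 after quantile normalization. In Y against N, 75.8% of 1042 were higher, against 57.2% of 916 and 62.6% of 844, and in E against N 96.4% of 274, against 94.9% and 95.9%.

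By group mean, Cyp2a5, Cyp2b19, Ces1d, Aldh3a1 and Gstm1 all stood in the order N, E, Y, EY from high to low, though for Gstm1 the N and E means lay close together. Adh7, Gsta4 and Nqo1 each had an order of their own. In EY against N, 5 of 8 were past the thresholds and lower, 0 higher, where 18.3% of all genes tested were past them, 12.6% higher and 5.71% lower. In Y against N, 4 of 8 were past them, all lower, where the shares were 4.58%, 3.47% higher and 1.11% lower. In E against N, 2 of 8 were past them, both lower, where the shares were 1.2%, 1.16% higher and 0.044% lower. Nothing is read from these counts, since the same contrasts were known when the genes were picked. The count in EY was 6 after either scaling, with Adh7 added. The count in Y was 2 without Y mouse 1 or Y mouse 2, and 1 with only N mice 1 to 3. The count in E was 0 without N mouse 3, 4 or 5 or E mouse 3 or 5, and 1 without N mouse 2, E mouse 1 or 2, Y mouse 3 or EY mouse 1, 2, 4 or 5, so it rests on many of the mice at once.

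**Figure D1:**
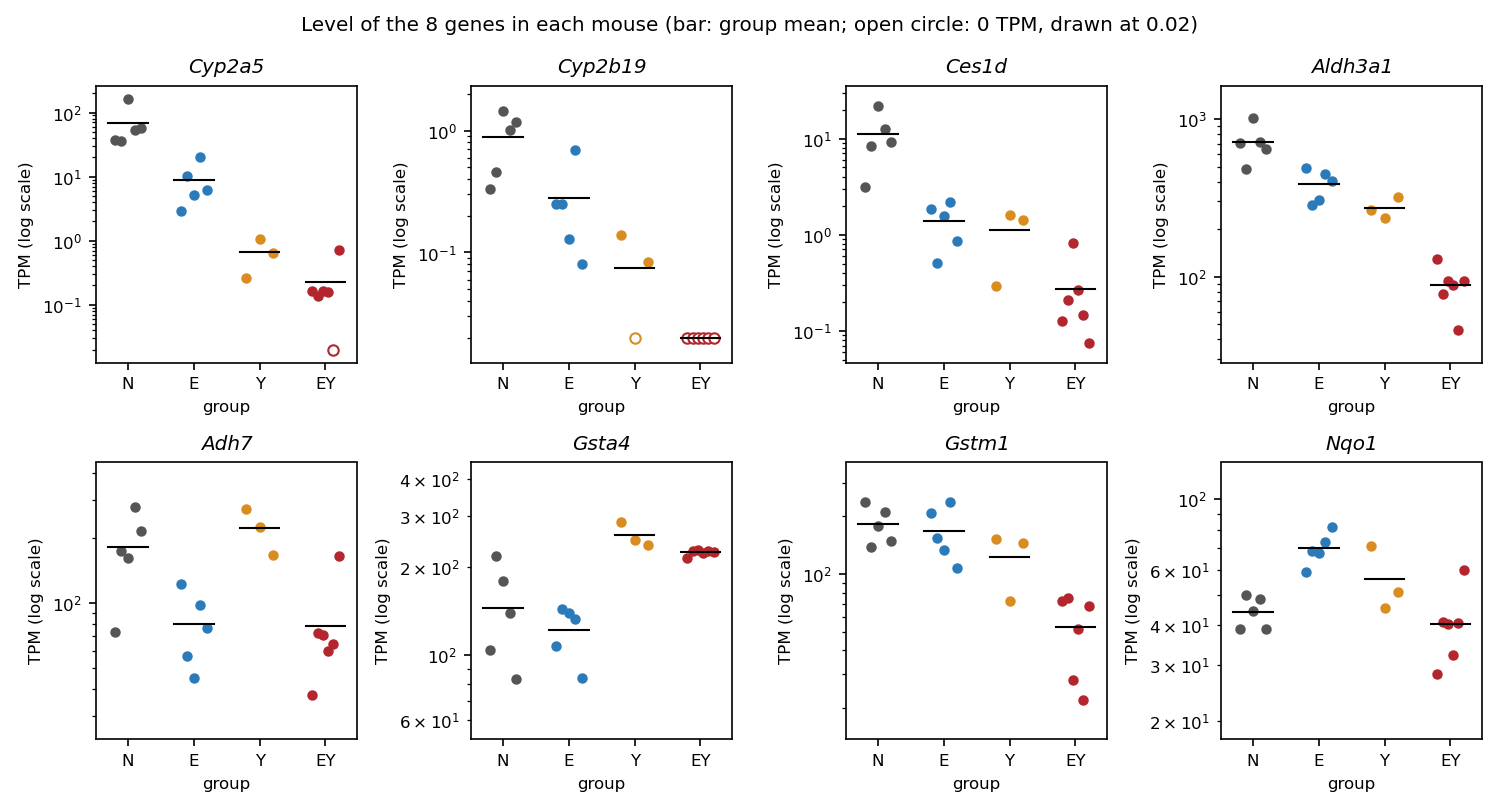
Level of each gene in each of the 19 mice, in TPM on a log axis, by group (5 N, 5 E, 3 Y and 6 EY mice), with bars at group means and open circles for mice at 0 TPM, drawn at 0.02. Cyp2a5 steps down from a mean of 69.1 TPM in N to 0.223 TPM in EY mice, and Gsta4 lies between 215 and 229 TPM in all EY mice.

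Cyp2a5 is a cytochrome P450 that hydroxylates coumarin and oxidizes nicotine. It was at 37.5, 36.0, 162, 53.7 and 56.6 TPM in N mice 1 to 5, and at 2.92, 10.2, 5.2, 19.9 and 6.16 TPM in E mice 1 to 5. In the Y mice it was at 0.262, 1.08 and 0.634 TPM, and in the EY mice it ranged from 0 to 0.718 TPM with a median of 0.159 TPM. Every E mouse was below every N mouse, every Y mouse below every E mouse, and 5 of 6 EY mice below every Y mouse, the exception being EY mouse 6, while N mouse 3 stood far above the rest of its group. The order of the means was N, 69.1 ± 52.6 TPM (SD, n = 5), E, 8.87 ± 6.69 (n = 5), Y, 0.658 ± 0.409 (n = 3), and EY, 0.223 ± 0.251 (n = 6), and among neighbours Y and EY overlapped. Against N the log2 fold change was -3.00 (SE 0.57) in E, -6.42 (SE 0.66) in Y and -7.78 (SE 0.55) in EY mice, or -3.11, -6.61 and -8.06 after median-of-ratios scaling. As ratios of means, N mice were 7.79-fold above E, 105-fold above Y and 310.0-fold above EY mice, or 5.18-fold, 69.8-fold and 206-fold without N mouse 3. Without EY mouse 6, which held 10 of the 18 reads of its group, N mice were 558-fold above EY mice. The depth behind the EY value was small, those 18 reads over 6 mice against 4873 reads over 5 N mice, and the Y value rested on 25 reads. At 69.1 TPM it was the 1094th most abundant of 23987 genes detected in N mice, against the 19850th of 24233 in EY mice.

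Part of the Cyp2a5 signal cannot be assigned with certainty, since other genes hold stretches identical to it. In the GENCODE M21 transcripts, 14.4% of its 1914 windows of 100 bases occurred unchanged in transcripts of another gene, Cyp2a4 or the pseudogene Cyp2a21-ps. Levels of Cyp2a4 were not analysed here. Cyp2b19 shared 5 of 2641 windows, 0.189%, with Cyp2b23, and Gstm1 shared 7.73% of 1190 with Gstm2-ps1, Gm8834 or Gstm3. No window of Ces1d, Aldh3a1, Adh7, Gsta4 or Nqo1 occurred in a transcript of another gene.

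Cyp2b19 is an epoxygenase of arachidonic acid that is known from differentiated keratinocytes. Its level was low throughout: 0.331, 0.454, 1.45, 1.02 and 1.18 TPM in N mice 1 to 5, 0.248, 0.251, 0.128, 0.691 and 0.081 TPM in E mice 1 to 5, 0.14, 0 and 0.0843 TPM in the Y mice, and 0 TPM in each of the 6 EY mice. The E mice lay below all N mice except E mouse 4, and each of the Y and EY mice lay below all N mice. Behind these values stood 121, 34, 5 and 0 reads in N, E, Y and EY mice. With 3 reads over the group as the limit that a count of 0 allows, Cyp2b19 was at least 43.3-fold lower in EY than in N mice, at least 13.7-fold lower than in E and at least 3.65-fold lower than in Y mice, counting error only. Without E mouse 4 the bound against E was 8.62-fold, and without Y mouse 1 that against Y was 2.06-fold. In E against N the log2 fold change was -1.41 (SE 0.41) and in Y against N it was -2.42 (SE 0.47), or -1.53 and -2.59 after scaling. At this depth the Y and EY mice overlap at 0.

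Ces1d is a carboxylesterase that hydrolyses ester drugs and stored triglycerides. It was at 3.10, 8.43, 22.0, 12.5 and 9.22 TPM in N mice 1 to 5, at 1.86, 0.51, 1.56, 2.21 and 0.868 TPM in E mice 1 to 5, and at 0.295, 1.6 and 1.42 TPM in the Y mice. In the EY mice it ranged from 0.0745 to 0.818 TPM, with a median of 0.178 TPM. All 14 transgenic mice were below the lowest N mouse, and E and Y mice overlapped. The EY mice overlapped both only through EY mouse 3, at 0.818 TPM. N, E, Y and EY means were 11.1 ± 6.99, 1.4 ± 0.702, 1.1 ± 0.707 and 0.273 ± 0.275 TPM (SD), so that EY mice held 2.47% of the N mean, or 1.48% without EY mouse 3. The log2 fold changes against N were -2.79 (SE 0.57), -3.21 (SE 0.65) and -4.88 (SE 0.54) in E, Y and EY mice, and -2.91, -3.41 and -5.18 after scaling.

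Aldh3a1, which oxidizes aldehydes of lipid peroxidation and aromatic aldehydes to acids, was by far the most abundant of the 8 genes in N mice. It was at 706, 485, 1015, 712 and 644 TPM in N mice 1 to 5, at 491, 283, 308, 449 and 403 TPM in E mice 1 to 5, and at 266, 237 and 321 TPM in the Y mice. The EY mice ranged from 45.5 to 129 TPM, with a median of 90.6 TPM. No Y or EY mouse reached any N mouse, only E mouse 1, at 491 TPM, reached above the lowest N mouse, and the EY mice lay below all others. By abundance it ranked 199, 303, 405 and 1117 among the genes of N, E, Y and EY mice. The log2 fold change was -0.87 (SE 0.24) in E, -1.34 (SE 0.28) in Y and -3.04 (SE 0.23) in EY mice, and -0.98, -1.54 and -3.42 after scaling.

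Adh7 encodes the alcohol dehydrogenase of upper digestive epithelium, which oxidizes ethanol and retinol. It was at 73.4, 173, 162, 279 and 215 TPM in N mice 1 to 5, at 122, 56.6, 44.9, 97.5 and 76.8 TPM in E mice 1 to 5, and at 273, 224 and 166 TPM in the Y mice. The EY mice ranged from 37.5 to 165 TPM with a median of 67.9 TPM. Here the Y mice lay within the range of the N mice, whereas 2 of 5 E mice and 5 of 6 EY mice were below every N mouse. N mouse 1 was the low value among controls, and EY mouse 6, at 165 TPM, was the high value in its group. The order of the means was Y (221 ± 53.4 TPM, SD), N (181 ± 75.6), E (79.6 ± 31.2) and EY (78.4 ± 44.1), in which Y overlapped N and E overlapped EY. Log2 fold changes were -1.15 (SE 0.38) in E, 0.39 (SE 0.44) in Y and -1.23 (SE 0.37) in EY mice, and -1.26, 0.19 and -1.61 after scaling, and -1.62 (SE 0.43) for EY against Y. The value in Y was 0.09 without N mouse 1 and 0.22 without Y mouse 1. An antisense transcript, 0610031O16Rik, overlaps Adh7 on the other strand, and its level followed that of Adh7 with a root mean square difference of 0.24 on the log2 scale over the 19 mice. Whether reads were counted by strand is not given in the sources used here, so reads of this pair cannot be told apart.

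Gsta4 conjugates hydroxynonenal, a product of lipid peroxidation, to glutathione. It was at 104, 219, 179, 139 and 82.8 TPM in N mice 1 to 5, at 108, 144, 140.0, 133 and 83.5 TPM in E mice 1 to 5, and at 285, 248 and 238 TPM in the Y mice. In the EY mice it ranged only from 215 to 229 TPM, with a median of 226 TPM. All Y mice and 5 of 6 EY mice were above every N mouse, EY mouse 1 falling just under N mouse 2, and the E mice lay within the range of the N mice. The log2 fold change was -0.19 (SE 0.21) in E, 0.91 (SE 0.24) in Y and 0.72 (SE 0.20) in EY mice, and -0.31, 0.71 and 0.34 after scaling, so less than the size of the threshold in each. The value in E lay between -0.37 and -0.02 when single mice were left out. EY mouse 1, at 215 TPM, stood apart from the other EY mice, at 224 to 229 TPM. With EY mouse 1 included, the coefficient of variation among EY mice was 2.29%, whereas it was 38.2% in N, 21% in E and 9.58% in Y mice. Of 612 other genes within 2-fold of its mean in EY mice, 1 had a lower one, and their median was 17.0%.

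Gstm1, a mu class transferase acting on electrophiles such as epoxides, was at 237, 139, 179, 211 and 148 TPM in N mice 1 to 5, at 209, 155, 134, 239 and 107 TPM in E mice 1 to 5, and at 153, 72.2 and 145 TPM in the Y mice. The EY mice ranged from 22.0 to 75.4 TPM, with a median of 60.0 TPM. Of the E mice 1 was above and 2 were below every N mouse, so that the E range enclosed that of N. The Y mice overlapped both, and the EY mice were below every N and E mouse and overlapped only Y mouse 2. The log2 fold change against N was -0.15 (SE 0.34) in E, -0.61 (SE 0.40) in Y and -1.90 (SE 0.33) in EY mice, and -0.26, -0.81 and -2.28 after scaling. Without Y mouse 2, the value in Y was -0.27, and the value in E ran from -0.29 to 0 when single mice were left out.

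Nqo1, the quinone reductase and a standard readout of NRF2, was at 38.9, 49.9, 44.3, 48.3 and 38.9 TPM in N mice 1 to 5, at 58.9, 68.9, 67.6, 73.5 and 81.7 TPM in E mice 1 to 5, and at 71.4, 45.5 and 51.0 TPM in the Y mice. The EY mice ranged from 28.0 to 60.0 TPM, with a median of 40.5 TPM. Each E mouse was above each N mouse, the Y mice straddled the upper end of the N range, and the EY mice overlapped the N mice on both sides. Log2 fold changes were 0.67 (SE 0.17) in E, 0.32 (SE 0.20) in Y and -0.16 (SE 0.16) in EY mice, and 0.56, 0.13 and -0.54 after scaling. Without Y mouse 1 the value in Y was 0.13, and without EY mouse 1, 4 or 6 the value in EY was -0.06, -0.1 and -0.28.

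**Figure D2:**
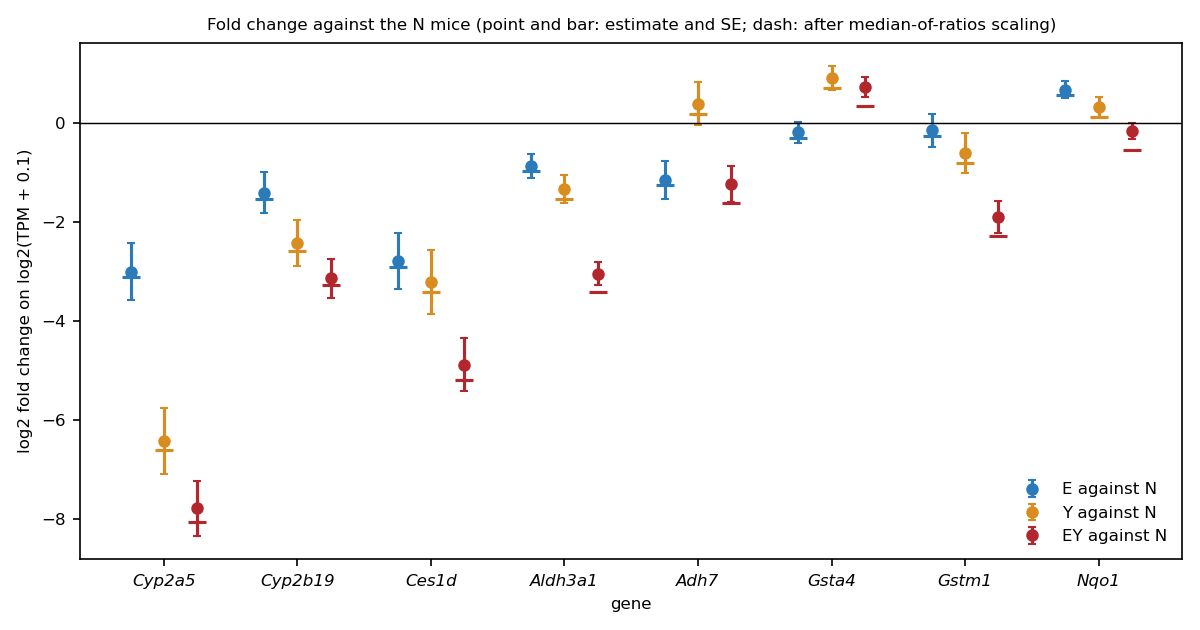
Log2 fold change of each gene in E, Y and EY against N mice on the log2(TPM + 0.1) scale (points, with bars for the SE) and after median-of-ratios scaling (dashes). Cyp2a5 has the lowest value in EY mice, -7.78, and Nqo1 is above 0 in E, 0.67, and below it in EY mice, -0.16; the point of Cyp2b19 in EY mice depends on the added 0.1 and is no bound.

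Between the transgenic groups, EY mice were past the thresholds and lower for 5 of 8 genes against E, namely Cyp2a5, Ces1d, Aldh3a1, Gstm1 and Cyp2b19, where 7.82% of all genes tested were higher and 4.99% lower. The log2 fold changes in that comparison were -4.78 for Cyp2a5, -2.09 for Ces1d, -2.17 for Aldh3a1, -1.76 for Gstm1 and -1.73 for Cyp2b19, and -4.95, -2.27, -2.43, -2.02 and -1.75 after scaling. Either scaling added Nqo1, from -0.83 to -1.09 with median-of-ratios, and made it 6 of 8. Limma voom, which dropped Ces1d, gave 4 and 1 TPM added gave 3. Ces1d was also not past the thresholds without E mouse 1, 3 or 4 or EY mouse 1, 2, 5 or 6, at -1.90 to -2.09. Against Y, Aldh3a1 was past them, at -1.70 (SE 0.27), where 1.07% were higher and 0.928% lower, and the log2 fold change of Cyp2a5 was -1.36 (SE 0.64), or -1.88 and -1.45 after scaling. The count against Y was 2, with Adh7, under limma voom and without EY mouse 6 (-1.86), and 0 with only the groups compared. Of the calls among all genes in these comparisons, 61.1% were higher in EY against E and 53.5% in EY against Y, against 38.9% and 30.3% after median-of-ratios scaling and 40.1% and 30.1% after quantile normalization. The interaction, EY minus E minus Y plus N, was estimated at 1.64 (SE 0.85) for Cyp2a5, 1.12 (SE 0.85) for Ces1d, -0.83 (SE 0.36) for Aldh3a1 and -0.47 (SE 0.57) for Adh7. It was 0 (SE 0.31) for Gsta4, -1.14 (SE 0.52) for Gstm1, -1.15 (SE 0.26) for Nqo1 and 0.70 (SE 0.61) for Cyp2b19. Its value depends on the added constant for enzymes near 0 TPM in EY mice. For Ces1d the interaction was 0.45 without Y mouse 1. For Adh7 the interaction was -0.18 without N mouse 1, -0.71 without EY mouse 6 and -0.90 with the mouse number as a block. It was past the thresholds for 0 of 8 genes in limma, where 0.176% of all genes were past them. With limma voom on recovered reads it was 1 of 8, Nqo1, where 118 of 22745 genes were past them, and without EY mouse 6 it was Nqo1 as well (-1.28).

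Promoter sequences were taken from RefSeq (GRCm38.p6), in windows of 250 bases before to 50 after each start, and were found for 5 of 8 genes, at 2 starts for Gstm1. Ces1d, Aldh3a1 and Gsta4 had no entry. Both strands were searched for TGACNNNGC, the core of the antioxidant response element bound by NRF2, GCGTG, the core of the xenobiotic response element, GGAATG, a TEAD motif, and TGACTCA or TGAGTCA, the AP-1 motif. The 250 bases before the start are shown for the genes with a promoter and a log2 fold change below -1 in EY against N. They run 5′ to 3′ along the gene, with matches in capitals. Of these genes Adh7 was not past the thresholds as deposited, and Cyp2a5 and Cyp2b19 lie in the same gene cluster. Nqo1, at -0.16 in EY mice, is not shown.
Cyp2a5 (chr7:26835089-26835338, plus strand): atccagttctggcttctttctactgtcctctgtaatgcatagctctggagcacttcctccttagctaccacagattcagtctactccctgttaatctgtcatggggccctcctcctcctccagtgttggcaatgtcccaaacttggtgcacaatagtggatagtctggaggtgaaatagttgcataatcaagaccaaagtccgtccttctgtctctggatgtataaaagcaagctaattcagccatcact
Cyp2b19 (chr7:26756892-26757141, plus strand): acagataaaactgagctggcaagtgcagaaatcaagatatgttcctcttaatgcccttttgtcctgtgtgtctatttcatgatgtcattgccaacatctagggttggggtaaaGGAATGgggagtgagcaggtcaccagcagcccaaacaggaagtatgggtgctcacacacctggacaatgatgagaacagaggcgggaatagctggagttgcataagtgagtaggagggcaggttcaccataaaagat
Gstm1 (chr3:108017974-108018223, minus strand): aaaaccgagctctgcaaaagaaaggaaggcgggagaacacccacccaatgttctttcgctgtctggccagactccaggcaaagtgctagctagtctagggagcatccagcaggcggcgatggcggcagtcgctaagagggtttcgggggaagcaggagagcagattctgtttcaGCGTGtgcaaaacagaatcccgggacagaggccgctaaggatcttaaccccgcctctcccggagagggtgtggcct
Adh7 (chr3:138217523-138217772, plus strand): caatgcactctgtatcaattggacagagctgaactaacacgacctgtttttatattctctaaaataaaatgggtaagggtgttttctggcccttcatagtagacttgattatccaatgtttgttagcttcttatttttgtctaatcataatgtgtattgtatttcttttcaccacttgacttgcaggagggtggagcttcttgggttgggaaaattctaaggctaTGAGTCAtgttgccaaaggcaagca
In these windows Cyp2b19 held GGAATG at positions -137 to -132 from the start, Gstm1 held GCGTG at -76 to -72 of the upstream start, and Adh7 held TGAGTCA at -25 to -19 and GCGTG on the other strand at 12 to 16, after the start. Cyp2a5 and Nqo1 held none of the 4 motifs. Of 32851 promoters, 12.4% held the antioxidant core, 32.4% the xenobiotic core, 14.7% GGAATG and 5.2% the AP-1 motif. A match is a description of the letters and not a site, and no match says only that the letters are not in this window.

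Other genes of the same pathways, held in 8 lists without the 8 enzymes, were tested in the limma fit over all genes. Since these lists too were drawn up with earlier results known, nothing is read from their counts against those of all genes. Of 148 tested, 10 were called higher and 26 lower in EY against N, 24.3%, beside 18.3% of all genes tested, and median-of-ratios scaling made this 6 and 34. In Y against N, 7 were higher and 5 lower, 8.11%, beside 4.58%, and 4 and 11 after scaling. That count of 12 was 6 without N mouse 3, 5 without N mouse 4 and 6 without any of Y mice 1, 2 or 3. In E against N, 0 of 148 passed in limma, beside 1.2% of all genes tested. An unadjusted p below 0.05 was found for 33 of 148, beside 3358 of 22745. With limma voom on recovered reads 2 passed, Ces1g and Gstm6, both lower. The limma count was 1 without N mouse 1, E mouse 1 or E mouse 5. The 148 genes had median log2 fold changes of -0.10, -0.03 and 0.01 in EY, Y and E mice, and -0.40, -0.21 and -0.09 after scaling. Of the 12 genes called in Y, Cyp2j6, Akr1b3 and Gsta3 were called in each of 31 fits, counting every alternative setting and left-out mouse, and the others in 12 to 30 of them.

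**Figure D3:**
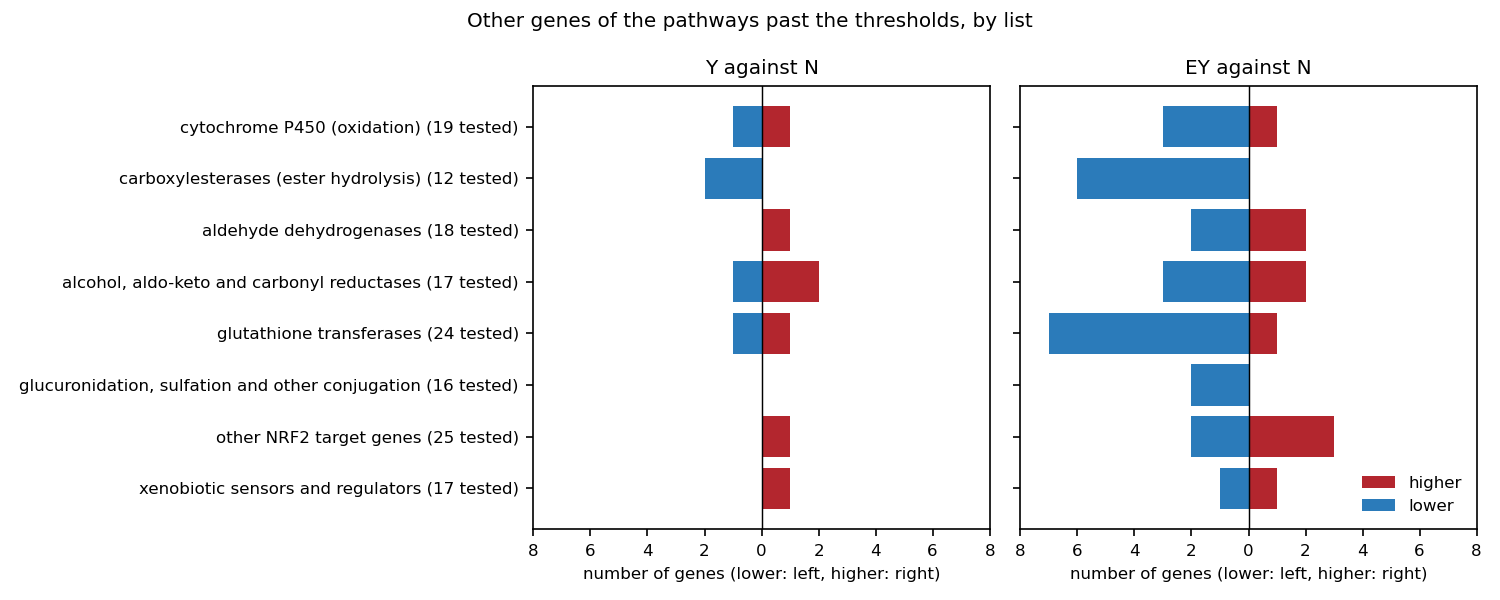
Number of genes past the thresholds in Y and in EY against N mice in each of 8 pathway lists, lower to the left and higher to the right. In EY mice, 6 of 12 genes of the carboxylesterase list, Aadac among them, and 7 of 24 glutathione transferases were lower. The NRF2 targets had 3 higher and 2 lower, and with median-of-ratios scaling 0 and 3. Of all genes tested, 12.6% were higher and 5.71% lower in EY mice before scaling.

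Among other genes of cytochrome P450 oxidation, 1 of 19 rose and 3 fell in EY against N, 1 and 4 after median-of-ratios scaling. Cyp2b10, a P450 induced by drugs such as phenobarbital, rose from 0.877 ± 0.466 TPM in N to 3.29 ± 0.988 in EY mice (SD; log2 fold change 1.89, SE 0.34, limma adjusted p = 0.000223), and each of 6 EY mice was above each N mouse. Cyp2f2, known for bioactivating naphthalene, fell from 88.6 ± 34.7 to 17.8 ± 12.5 TPM (log2 fold change -2.70, SE 0.61, adjusted p = 0.00166). Cyp2j6 fell from 6.83 ± 1.81 to 1.13 ± 0.321 TPM (-2.51, SE 0.19, adjusted p = 2.08e-08), with all 6 EY mice below the N mice, and was at 2.36 ± 0.40 TPM in Y mice (-1.48, adjusted p = 0.000346). Cyp2j9 fell by 1.88 (SE 0.42, adjusted p = 0.00159), a call lost with only N mice 1 to 3 and with 1 TPM added in place of 0.1. Cyp2b10 is a relative of Cyp2b19, and where the latter was at 0 in EY mice, Cyp2b10 was called higher. In Y mice Cyp2b10 was at 3.15 ± 0.757 TPM (1.85, adjusted p = 0.00514), a call lost without N mouse 2 or 4 (1.81 and 1.83) or any single Y mouse (1.73 to 2.06) with median-of-ratios scaling (1.67), with N mice 1 to 3 only and with only the groups compared. Cyp2ab1, another P450 of the list, was listed at 0 in all Y and EY mice, with 15 reads over the N mice, and did not pass in EY (adjusted p = 0.0159). It did without N mouse 2 (-1.09), with 0.01 TPM added and with limma voom, in 3 of 30 fits, and it met the filter only through N and E mice, so it could not have been tested without being higher there.

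Of the carboxylesterases and the related arylacetamide deacetylase Aadac, 6 of 12 tested were called lower in EY mice and 0 higher, with a median log2 fold change of -1.44, and median-of-ratios scaling made 8 of them lower. Ces1b went from 31.9 ± 12.3 TPM in N to 5.08 ± 3.36 in EY mice (-2.85, SE 0.45, adjusted p = 6.4e-05), and Ces1h from 59.2 ± 10.9 to 12.0 ± 5.72 TPM (-2.41, SE 0.25, adjusted p = 6.77e-07). In both genes all 6 EY mice were below all N mice. Ces2b fell from 2.68 ± 0.718 to 0.456 ± 0.432 TPM (-2.67, SE 0.51, adjusted p = 0.000349) and Aadac from 14.1 ± 2.92 to 2.47 ± 1.28 TPM (-2.58, SE 0.26, adjusted p = 5.08e-07), again with every EY mouse below every N mouse. Ces1f and Ces1g were also lower, at -2.12 and -2.08, and lost their calls with 1 TPM added in place of 0.1. Ces1a and Ces1c were at 0.0942 and 0.111 TPM in N mice and did not pass, and Ces1e, at 0.175 TPM in N and 0 in all EY mice, did not reach the filter. In the 1 fit without a filter Ces1e was called lower in EY (adjusted p = 0.00667). In RefSeq, Ces1d lies between Ces1a, Ces1b and Ces1c on one side and Ces1e, Ces1f and Ces1g on the other. In Y mice 2 of 12 passed, Ces1f (-2.18, adjusted p = 0.00582) and Aadac (-1.39, adjusted p = 0.00599). The call of Ces1f rested on 7 reads in Y mice and was lost without N mouse 3 or 4 (-2.13 and -2.16) or Y mouse 1, 2 or 3 (-2.29, -2 and -2.26). It was lost as well with 1 or 0.01 TPM added, limma voom, the mouse number as a block, quantile normalization and a fit of only the groups compared. That of Aadac was lost without N mouse 2, 3, 4 or 5 or Y mouse 1, 2 or 3, at -1.19 to -1.52, and with N mice 1 to 3 only.

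Aldehyde dehydrogenases split, with 2 of 18 higher and 2 lower in EY mice, and 1 and 4 after scaling. Aldh1a3, which makes retinoic acid from retinal, rose from 0.237 ± 0.25 TPM in N to 4.52 ± 3.31 in EY mice (3.80, SE 0.74, adjusted p = 0.000429), with 6 of 6 EY mice above the N mice, and was at 3.48, 5.05 and 3.82 TPM in the Y mice. In E mice 1 to 5 it was at 0.105, 6.15, 1.51, 0.256 and 0.548 TPM, without a call, and 2 of 5 were above every N mouse. Its log2 fold change in Y was 3.94 (SE 0.89, adjusted p = 0.00565), a call lost without N mouse 3, 4 or 5 or any single Y mouse, at 3.67 to 4.04, and with 1 TPM added, with N mice 1 to 3 only and with the mouse number as a block. Aldh18a1, an enzyme of proline synthesis, rose to 5.55 ± 1.27 from 2.33 ± 0.73 TPM (1.23, SE 0.19, adjusted p = 5e-05), but lost its call with median-of-ratios scaling (0.87), quantile normalization and 1 TPM added. Aldh1a7 fell from 1.71 ± 0.837 to 0.208 ± 0.0906 TPM (-2.47, SE 0.35, adjusted p = 1.8e-05), and Aldh5a1, of the breakdown of the transmitter GABA, from 6.40 ± 1.19 to 2.82 ± 0.702 TPM (-1.17, SE 0.16, adjusted p = 1.68e-05). For both, each EY mouse was below each N mouse, and the call of Aldh5a1 was lost with 1 TPM added. None of these 4 reached the abundance of Aldh3a1, which was at 87.8 TPM even in EY mice.

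Alcohol, aldo-keto and carbonyl reductases had 2 of 17 higher and 3 lower in EY mice, and 2 and 4 after scaling. The aldose reductase Akr1b3 rose from 14.8 ± 2.92 TPM in N to 76.7 ± 19.1 in EY mice (2.34, SE 0.18, adjusted p = 2.22e-08), and Akr1b8, which reduces retinal and reactive aldehydes, from 6.01 ± 2.63 to 39.1 ± 13.4 TPM (2.73, SE 0.32, adjusted p = 2.53e-06). In Y mice they were at 44.0 ± 3.06 TPM (1.58, adjusted p = 0.000112) and 28.4 ± 10.6 TPM (2.28, adjusted p = 0.000667). All Y and EY mice were above all N mice for both, the call of Akr1b8 in Y was lost with only the groups compared, and the E mice were at 18.9 ± 3.41 and 7.60 ± 2.75 TPM with no call. Adh1, a neighbour of Adh7 that also oxidizes ethanol, fell from 2.39 ± 0.969 TPM in N to 0.29 ± 0.24 in EY mice (-2.87, SE 0.45, adjusted p = 5.46e-05), and was at 0.311 ± 0.0805 TPM in Y mice (-2.55, adjusted p = 0.00385), where the call was lost without any single Y mouse (-2.37 to -2.64), with 0.01 TPM added and with N mice 1 to 3 only. Adh6a, the next gene in the cluster, fell by 2.35 (SE 0.64, adjusted p = 0.0068) in EY mice, with 5 of 6 below every N mouse. That call was lost without N mouse 1, 2 or 3 or EY mouse 1, 2, 3, 4 or 6, at -2.03 to -2.41, and with 1 TPM added, the mouse number as a block and limma voom. So in Y mice, in which Adh7 was at 221 TPM and within the N range, its neighbour Adh1 was called lower.

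Of the glutathione transferases, 1 of 24 was called higher and 7 lower in EY mice, and 1 and 8 after scaling. The mu class genes next to Gstm1 were low together: Gstm2 fell from 90.1 ± 26.8 TPM in N to 16.7 ± 6.05 in EY mice (-2.46, SE 0.37, adjusted p = 3.95e-05), Gstm6 from 12.1 ± 2.45 to 1.66 ± 0.94 TPM (-2.98, SE 0.34, adjusted p = 1.71e-06) and Gstm3 from 2.74 ± 1.47 to 0.208 ± 0.279 TPM (-3.43, SE 0.62, adjusted p = 0.000222). Gstm4 and Gstm5 were lower too, at -1.50 and -1.58 (adjusted p = 3.46e-05 and 2.83e-06). For Gstm2, Gstm4, Gstm5 and Gstm6 all 6 EY mice were below all N mice, and for Gstm3 5 of 6. Gstm7, with 22 reads over the N mice, did not pass. In Y mice these genes parted, with Gstm2 at 51.0, 108 and 162 TPM, a spread wider than that of the N mice, and Gstm4 at -1.15 (adjusted p = 0.00773), a call lost without N mouse 1, 3, 4 or 5, E mouse 2 or 3, Y mouse 2 or 3 or EY mouse 3, at -0.90 to -1.21, and with N mice 1 to 3 only or only the groups compared. Since Gstm1 shares stretches with Gstm3 and a Gstm2 pseudogene, single values within this family are uncertain.

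The alpha class moved in both directions. Gsta3 rose from 2.05 ± 0.783 TPM in N to 20.5 ± 1.74 in Y mice (3.35, SE 0.35, adjusted p = 8.35e-06) and 18.2 ± 5.29 in EY mice (3.14, SE 0.29, adjusted p = 1.53e-07), was at 2.10 ± 1.02 TPM in E mice, and lay above all N mice in each Y and EY mouse. Gsta2 fell from 10.1 ± 2.17 to 2.67 ± 1.36 TPM in EY mice (-1.99, SE 0.26, adjusted p = 8.65e-06). Gsta1 and Gsta5 did not pass (-0.17 and -0.36, adjusted p = 0.726 and 0.543). Gsta4, untested, also had its higher means in the Y and EY mice.

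**Figure D4:**
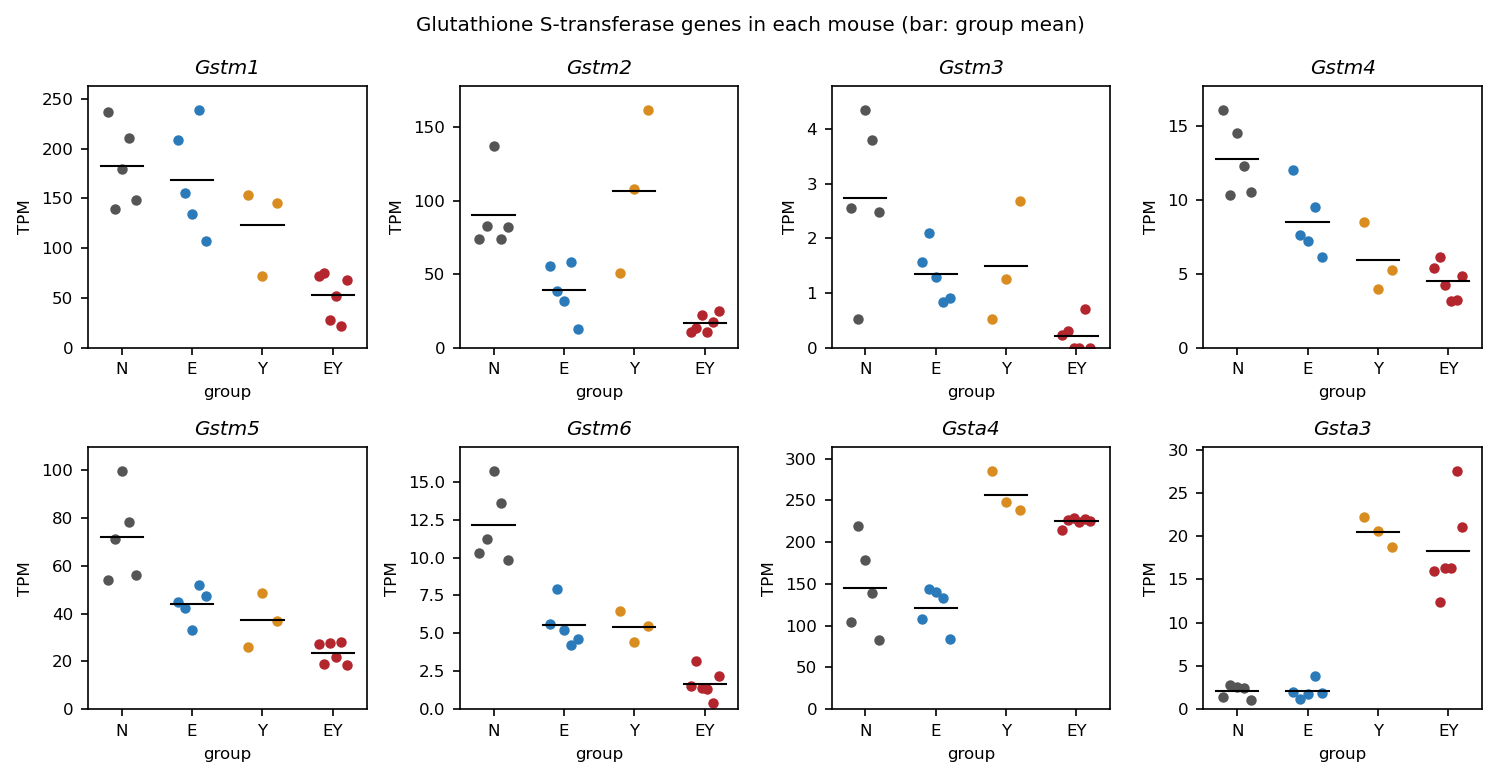
Level of 6 mu class and 2 alpha class glutathione transferase genes in each mouse, in TPM by group, with bars at group means. All 6 EY mice are below all N mice for Gstm1, Gstm2, Gstm4, Gstm5 and Gstm6, and Gsta3 is at 18.7 to 22.2 TPM in Y mice against 1.02 to 2.78 TPM in N mice.

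Conjugation by glucuronide, sulfate and other groups had 0 of 16 higher and 2 lower in EY mice, the same after scaling. Ugt1a1, which glucuronidates bilirubin and phenols, fell from 5.12 ± 1.17 to 1.23 ± 0.721 TPM (-2.09, SE 0.27, adjusted p = 7.33e-06), with 6 of 6 EY mice below the N mice.

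Other NRF2 target genes, beside Nqo1, had 3 of 25 higher and 2 lower in EY mice. After median-of-ratios scaling they had 0 higher and 3 lower, and after quantile normalization 1 and 3, so the direction of the list depends on the scaling. Tkt of the pentose phosphate pathway rose by 1.36 (SE 0.20, adjusted p = 2.65e-05), glutathione reductase Gsr by 1.22 (SE 0.15, adjusted p = 5.31e-06) and the ferritin light chain Ftl1 by 1.18 (SE 0.22, adjusted p = 0.000339), and with scaling they were at 0.98, 0.86 and 0.81, without a call. The calls of Tkt and Gsr were also lost with quantile normalization, that of Gsr with 1 TPM added and that of Ftl1 with N mice 1 to 3 only. Malic enzyme Me1 fell from 17.5 ± 3.12 to 5.05 ± 1.33 TPM (-1.80, SE 0.20, adjusted p = 1.1e-06), and Gpx2, a glutathione peroxidase of epithelia, from 737 ± 128 to 237 ± 97.4 TPM (-1.71, SE 0.23, adjusted p = 9.85e-06), both with every EY mouse below every N mouse. In Y mice Tkt was at 1.00 (adjusted p = 0.00823) and was called in 12 of 31 fits, the call being lost without N mouse 2, 3, 4 or 5, E mouse 2, 3 or 4, Y mouse 1 or 3 or EY mouse 2, 3 or 6, at 0.77 to 1.04, and in 7 of 11 other settings, both scalings among them.

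Of 17 sensors and regulators, 1 was higher and 1 lower in EY mice, also after scaling. Tiparp, a target and repressor of the aryl hydrocarbon receptor, rose from 12.7 ± 3.22 TPM in N to 39.6 ± 8.73 in EY mice (1.64, SE 0.22, adjusted p = 1.36e-05) and was at 29.3 ± 4.70 TPM in Y mice (1.21, adjusted p = 0.00517), where the call was lost without N mouse 1, 2, 3 or 4 or any single Y mouse, at 1.09 to 1.28, and with median-of-ratios scaling, at 1.02, or quantile normalization, at 0.95. The receptor itself, Ahr, went from 3.95 ± 0.918 TPM in N mice to 5.47 ± 1.32 TPM in EY mice without a call (0.45, adjusted p = 0.104), and its repressor Ahrr was at 0.0466 and 0.0991 TPM (adjusted p = 0.148). Nfe2l2, which encodes NRF2, averaged 74.5 ± 9.96, 90.3 ± 9.06, 72.4 ± 15.8 and 61.2 ± 14.3 TPM in N, E, Y and EY mice, with adjusted p of 0.469, 0.883 and 0.13, and its log2 fold change in EY was -0.31, or -0.68 after scaling. Keap1, the adaptor that marks NRF2 for degradation, averaged 16.6 ± 3.83 TPM in N mice and 25.8 ± 3.82 TPM in EY mice (0.65, SE 0.15, adjusted p = 0.00168), under the fold threshold and at 0.28 after scaling, and the RNA of these genes does not report the activity of the proteins.

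Markers of some cell types differed between the same groups, and their part in the levels above was not tested. No marker of any list was called in E against N in any fit, and none of skeletal muscle in E, Y or EY. In limma as above, none of minor salivary gland, taste cells or macrophages was called against N either. In EY against E, 1 of 6 macrophage markers was called higher, and 0 after median-of-ratios scaling. In other fits of EY against N, Muc5b of the salivary gland was called lower in 7 of 30, among them both scalings and limma voom. Of macrophages, C1qb was called higher in 3 of 31 fits, Mrc1 in 2 of 30 and Cd68 in 1 of 31. Of taste cells, Trpm5 was called higher in 1 of 30 fits, and Gnat3, below the filter, lower in the 1 fit without one. The 6 markers of terminally differentiated keratinocytes, with Lor the most abundant in N mice, spanned 9579.9 to 18304, 8544 to 17231, 6932 to 12416 and 2479 to 3934 TPM among N, E, Y and EY mice, so that EY mice lay below all others. Of 5 tested, 4 were lower in EY against N, 2 in Y and 0 in E mice, where 0 also had an unadjusted p below 0.05 and 0 passed with limma voom. In Y, Krt24 was called in 29 and Krt76 in 25 of 31 fits, and both calls were lost without Y mouse 1 and with only the groups compared. Between the transgenic groups, 4 of 5 were lower in EY against E and 4 in EY against Y. The markers of this sum did not move alike in Y mice. Sprr3 was at 6848, 3942 and 5268 TPM there, against 1288 to 6649.6 TPM in N mice. Lor was at 5045, 1837 and 2457 TPM in Y mice, against 3158 to 8136 TPM in N mice. The 6 oral keratinocyte markers, with Krt13 the most abundant in N mice, averaged 118444, 110695, 93896 and 65635 TPM in N, E, Y and EY mice. In EY mice 1 was called higher, Krt14 (1.43), and 2 lower, Krt13 (-1.75) and Krt4 (-1.61). Krt5 was at 0.98 without a call, so the lower sum in EY mice is not a fall of all 6 markers. Granulocyte markers, of which S100a8 and S100a9 made up nearly the whole sum, spanned 8.2 to 78.2, 5.8 to 85.7, 543 to 961 and 83.5 to 1034 TPM among N, E, Y and EY mice, and 2 of 6 were called higher in Y and 3 in EY mice. Ly6g, called in EY, had 0 TPM outside that group and passed the filter only through it. Csf3r averaged 1.12 TPM in N and 0.799 TPM in Y mice, without a call. N mouse 1 was at 3.55 TPM and the other N mice at 0.173 to 0.772 TPM, with 0.224 to 1.12 TPM in Y and 0.476 to 7.07 TPM in EY mice. Retnlg ranged from 0 to 1.52 TPM in N and 0 to 21.2 TPM in Y mice. Cxcr2 ranged from 0.176 to 2.51 TPM in N and 1.26 to 3.08 TPM in Y mice, both also without a call in Y. Skeletal muscle markers, led by Acta1, reached 1264 TPM in EY mouse 3, while the other EY mice were at 34.3 to 209 TPM and N mice at 11.3 to 233 TPM. Without EY mouse 3, the log2 fold changes in EY were -7.78 for Cyp2a5, -5.19 for Ces1d, -3.07 for Aldh3a1, -1.75 for Gstm1 and -3.14 for Cyp2b19, and 5 of 8 genes were past the thresholds as before.

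Adipocyte markers, of which Cidec, Fabp4 and Cfd were analysed, averaged 3.55, 2.98, 25.4 and 23.1 TPM in N, E, Y and EY mice, mostly Fabp4, and the Y mean was 6.47 TPM without Y mouse 1. Those of fibroblasts, with Dcn the most abundant in N and Col3a1 in EY mice, averaged 144, 80.6, 34.1 and 86.8 TPM, of macrophages, with Cd68, 83.7, 103, 52.7 and 131 TPM, and of T cells, with Trac the most abundant in N mice, 3.15, 3.76, 3.07 and 8.08 TPM. The N mean of the macrophage markers was 46.5 TPM without N mouse 1. Endothelial markers, with Cldn5 the most abundant in N mice, averaged 3.37, 2.17, 1.97 and 6.19 TPM, with 1.97 TPM for N without N mouse 1, and taste cell markers, with Tas1r3, 7.10, 6.57, 4.08 and 4.97 TPM. Minor salivary gland markers averaged 2.78 TPM in N, 1.11 TPM without N mouse 3, and 0.197, 0.274 and 0.143 TPM in E, Y and EY mice, and their most abundant gene, Bpifa2, was at 0 in all of those. The salivary sums of N mice 1 to 5 were 0.508, 3.76, 9.44, 0.106 and 0.0707 TPM. Of the fibroblast markers Dcn was called lower in EY against N, and Fabp4 of adipocytes, Cd3d of T cells and Egfl7 of endothelium were called higher. Dcn, at -2.36, was apart from its list, as the 6 fibroblast markers had a median log2 fold change of 0.39, or 0.02 after median-of-ratios scaling. The calls of Dcn and Egfl7 held in all 31 fits and those of Fabp4 and Cd3d in 27, that of Fabp4 not with limma voom.

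**Figure D5:**
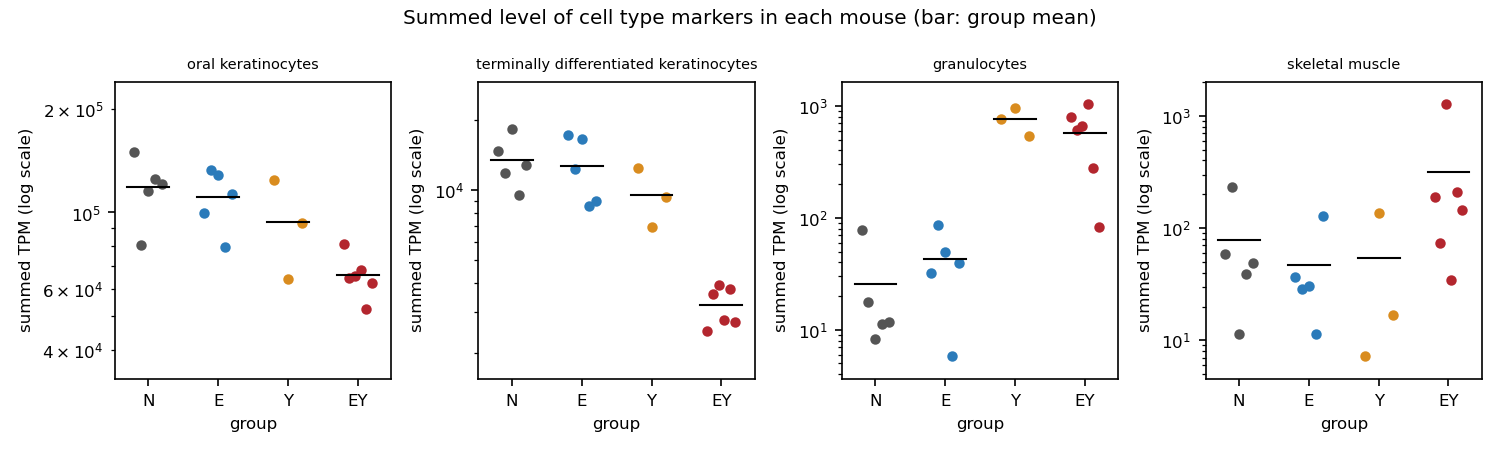
Summed level of the markers of 4 cell types in each mouse, in TPM on a log axis, by group, with bars at group means. Markers of terminally differentiated keratinocytes lie at 2479 to 3934 TPM in EY mice, below all other groups, and the granulocyte sum, nearly all S100a8 and S100a9, lies at 543 to 961 TPM in Y mice, above all N mice.

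The genes whose levels were most like each enzyme were found as the smallest root mean square difference of log2(TPM + 0.1), relative to the N mean, over the 19 mice. They were sought among 15603 other genes of at least 1 TPM, or 15604 for Cyp2b19. For Aldh3a1 they were Prxl2b (0.45), Gstm6 (0.52) and Acer1 (0.52), and Prxl2b averaged 188, 131, 73.4 and 21.4 TPM in N, E, Y and EY mice. For Ces1d they were Rnase1 (1.06), Serpinb3c (1.17) and Serpinb3d (1.2), and for Cyp2a5 Bhlha9 (1.66), Gm52952 (1.83) and Mir8116 (1.85), none of them close. For Cyp2b19, the nearest gene was Aldh3a1 itself (0.76), then Sema4g and Lurap1l (both 0.79). With Cyp2b19 at 0 TPM in all EY mice, its values there are set by the added 0.1, and its nearest genes depend on that constant. Across settings its log2 fold change in EY ran from -6.28 to -0.88, and that of Aldh3a1 from -3.42 to -3.03. Gstm1 was nearest to Bmyc (0.46), Fos (0.49) and Egr1 (0.49), where Fos averaged 1084, 1044, 830.1 and 303 TPM in N, E, Y and EY mice. After its antisense transcript, Adh7 was nearest to Rpl34 (0.64) and Gm20467 (0.66). The nearest to Gsta4 were Eif2s3x (0.26), Col8a1 (0.27) and Akap1 (0.28), and to Nqo1 Cyth1 (0.26), Ip6k1 (0.27) and Zyx (0.27), all within the small range that these enzymes covered.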

How the data were processed

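The authors deposited 1 table of TPM values for 24689 gene symbols and 19 mice, and its values are used as deposited. By the methods of the study, the authors aligned paired reads to GRCm39 with STAR 2.7.9, sorted them with samtools 1.7 and counted them per gene with HTSeq 0.13.5. How counts became TPM, and whether counting was by strand, is not given in the sources used here. The TPM of each of 24680 genes above 0 fell on whole reads, within a tolerance of 0.01 reads. Reads per mouse were therefore recovered from the table and used for depth and for 1 alternative. All 19 mice were used and 0 columns of values were left out.

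The 8 enzymes and the lists of pathway genes and cell markers were chosen with earlier results of these data known. The 8 enzymes were in the limma fit with all other genes, and their results past the thresholds are given as a description only. The 22745 genes that reached 0.1 TPM in 3 or more mice entered limma 3.58.1 (R 4.3.3) on log2(TPM + 0.1), in 1 model with 4 group means and a variance trend. P values were adjusted over all genes by Benjamini and Hochberg, and a call needs adjusted p under 0.01 and a log2 fold change above 1 or below -1. From each pathway list, up to 3 called genes per direction in EY and 1 in Y or E were named, those with the largest changes and a mean of 1 TPM or more in either group, together with relatives of the 8 enzymes by symbol and Nfe2l2, Keap1, Ahr and Ahrr. The transgenes were not analysed here.

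Alternatives were other added constants, a filter of 1 TPM in 3 mice, no filter, median-of-ratios scaling, quantile normalization, N mice 1 to 3 only, a fit of only the groups compared, an adjusted p under 0.05, the mouse number as a block, limma voom, and leaving out each mouse. Promoters came from RefSeq on GRCm38.p6 and transcripts from GENCODE M21. Scripts ran in Python 3.11.15 with numpy 2.4.6, pandas 2.3.3 and matplotlib 3.10.9.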

Additional observations from a re-analysis of the deposited data

Results flagged for a closer look

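Single mice stood apart from the rest of their group in 21 of 149 groups of values examined, 14.1%, where chance gives about 5% for independent values of normal spread. TPM values are skewed and these genes vary together, so that share is no yardstick here. Groups of 3 mice, so the Y mice, were not examined. What set each apart was not tested.

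Cyp2a5 was at 162 TPM in N mouse 3, with the other N mice at 36 to 56.6 TPM. Cyp2a5 was at 0.718 TPM in EY mouse 6, with the other EY mice at 0 to 0.166 TPM. Ces1d was at 0.818 TPM in EY mouse 3, with the other EY mice at 0.0745 to 0.263 TPM. Adh7 was at 165 TPM in EY mouse 6, with the other EY mice at 37.5 to 72.5 TPM. Gsta4 was at 215 TPM in EY mouse 1, with the other EY mice at 224 to 229 TPM. Cyp2b19 was at 0.691 TPM in E mouse 4, with the other E mice at 0.081 to 0.251 TPM.

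Among the genes of the pathway lists, the mice were as follows. Aldh1a3 was at 6.15 TPM in E mouse 2, with the other E mice at 0.105 to 1.51 TPM. Aldh18a1 was at 3.61 TPM in N mouse 1, with the other N mice at 1.76 to 2.12 TPM. Adh1 was at 4.07 TPM in N mouse 3, with the other N mice at 1.69 to 2.35 TPM. Adh6a was at 1.55 TPM in EY mouse 5, with the other EY mice at 0.108 to 0.613 TPM. Gsta3 was at 3.84 TPM in E mouse 4, with the other E mice at 1.16 to 1.92 TPM. Gstm2 was at 137 TPM in N mouse 3, with the other N mice at 73.9 to 82.7 TPM. Ugt1a1 was at 7.18 TPM in N mouse 3, with the other N mice at 4.37 to 4.83 TPM. Ugt1a1 was at 2.62 TPM in EY mouse 3, with the other EY mice at 0.73 to 1.35 TPM.

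Tiparp was at 18.4 TPM in N mouse 5, with the other N mice at 10.4 to 12 TPM. Ces1a was at 0.188 TPM in EY mouse 5, with the other EY mice at 0 to 0.0244 TPM. Ces1e was at 0.586 TPM in N mouse 3, with the other N mice at 0.0413 to 0.1 TPM. Ces1f was at 1.94 TPM in N mouse 2, with the other N mice at 0.283 to 0.762 TPM. Gsta1 was at 12.3 TPM in EY mouse 6, with the other EY mice at 4.11 to 7.02 TPM. Gsta5 was at 0.757 TPM in N mouse 4, with the other N mice at 0.107 to 0.263 TPM. Gsta5 was at 0.592 TPM in E mouse 3, with the other E mice at 0.0804 to 0.166 TPM.

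Of the 8 enzymes, Gsta4 alone had every mouse of the E group below and every mouse of the Y and of the EY group above its N mean. The means of Adh7 and Nqo1 also lay on different sides in different groups, with single mice on both. The Y mice exceeded the E mice by a log2 difference of 1.1, and the EY mice exceeded the E mice by 0.91. The second difference was in the limma fit and was not past the thresholds, and both are given as a description only.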

How the results depend on the processing

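Calls against N were counted again under each alternative and without each mouse, and why a count moved was not tested. The 4157 genes called in EY stayed between 2905 and 5009 under other settings and between 3777 and 4212 without 1 mouse. In Y, 1042 genes became 657 with N mice 1 to 3 only, 615 with only the groups compared and 1599 at adjusted p under 0.05. Without 1 mouse they ranged from 639, without Y mouse 3, to 1040. In E, 274 became 150 with only the groups compared and 414 at adjusted p under 0.05, and 221 to 328 without 1 mouse.

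Between groups, the 454 genes called in EY against Y became 211 with only the groups compared and 865 at adjusted p under 0.05. Without Y mouse 1, 2 or 3 they were 200, 254 and 263, and the highest count without 1 mouse was 497. The 2914 genes of EY against E ranged from 1965 to 3653, and from 2576 to 3029 without 1 mouse. The 40 interaction calls became 148 at adjusted p under 0.05 and 118 with limma voom, and ranged from 28 to 73 without 1 mouse, 73 without EY mouse 3.

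The 36 pathway genes called in EY ranged from 26 to 40, and from 34 to 39 without 1 mouse. The 12 called in Y became 7 with N mice 1 to 3 only and 20 at adjusted p under 0.05, and ranged from 5 to 14 without 1 mouse. The 0 called in E became 1 with 1 TPM added, 4 at adjusted p under 0.05 and 2 with limma voom, and were 0 to 1 without 1 mouse.

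Of the 8 enzymes, the 5 past the thresholds in EY ranged from 4 to 6, and from 5 to 6 without 1 mouse. The 4 in Y were 1 with N mice 1 to 3 only and 1 with only the groups compared, and 2 to 5 without 1 mouse. The 2 in E were 0 with 0.01 TPM added, 0 with N mice 1 to 3 only and 0 with only the groups compared, and 0 to 2 without 1 mouse. Over all alternatives 701 of 720 fold changes of the 8 enzymes stayed within 1 SD of the log2 values of the N mice, 19 moved further and 0 reversed. Those that moved were of Cyp2a5, Ces1d and Cyp2b19 with other added constants or limma voom, where Cyp2b19 ran from -6.28 to -0.88 in EY and from -3.9 to -0.77 in Y, Cyp2a5 from -8.78 to -5.62 in EY and Ces1d reached -3.06 in EY, and of Gstm1 and Nqo1 with scaling or without 1 Y mouse. The band is wide: Adh7 in EY ran from -1.61 to -0.85 and Gsta4 in EY from 0.34 to 0.72 across settings inside it. For 54 results of named pathway genes, all in EY and those called in Y, 1497 of 1607 fits agreed on the call, 107 lost it, 3 gained one and 0 reversed. Beyond these, named genes without a call passed in some of 31 fits: in Y Gpx2 in 11, Gstm5 in 6, Gsta2 in 5, Aldh1a7 and Me1 in 4, Ugt1a1 in 3, Ces2b and Gstm6 in 2 and Cyp2j9 in 1, and in E Ces1g in 4, Adh1 and Aldh1a7 in 2 and Gstm6 in 1. Ces1e, below the filter, passed in EY in the 1 fit without one (-1.17, adjusted p = 0.00667).

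With the mouse number as a replicate block, calls were 3989 in EY, 861 in Y and 221 in E against N, 320 in EY against Y, 2814 in EY against E and 27 for the interaction. The replicate block gave 36, 10 and 0 pathway genes and 6, 3 and 2 of the 8 enzymes in EY, Y and E. The labels do not pair mice of the same number, and whether such mice had more in common is not known here. Over 24 pairs of the same number the correlation of residuals was -0.04 to 0.08, median 0.01. Over 109 pairs of different number it was -0.2 to 0.08, median -0.01.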
